A study of Mus musculus with 9 samples.

Results

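The genes described here build and drive the motile cilium. They were chosen by symbol from the deposited table of mouse lung RNA sequencing: every gene whose name began with Dnah, Dnai, Dnaaf, Cfap, Tekt, Rsph, Drc or Ift followed by a digit, together with Foxj1, Mcidas, Dynlrb2, Ccdc153, Ccdc39, Ccdc40, Hydin and Dnali1. The rule found 104 members among 34638 genes, 96 by the stem of the name and 8 by the exact name alone. Whole lungs of wild-type C57BL/6 mice were compared in 3 groups of 3. Control mice were challenged with phosphate buffered saline, IL-33 mice received 0.5 µg of recombinant mouse IL-33 into the trachea on days 0, 1, 2 and 3, and IL-33+LM8 mice were given the same IL-33 after LM8, which inhibits MyD88 and was injected into the abdomen at 10 mg/kg. Female mice of 6 to 8 weeks sampled on day 4 are described in the methods for the IL-33 model. Sex, age and sampling day of the LM8-treated mice are not given in the sources used here.

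Motile cilia are built on airway multiciliated cells, where they beat and move mucus along the airway. Each axoneme carries outer and inner dynein arms that slide its microtubules, a nexin-dynein regulatory complex and radial spokes that control the arms, a central pair of microtubules, and tektins inside the microtubule walls. Dynein arms are preassembled in the cytoplasm by dedicated factors, cargo is carried along the axoneme by intraflagellar transport (IFT) trains that also serve immotile cilia, and the transcription programme is opened by Mcidas and carried on by Foxj1. IL-33 is an epithelial alarmin whose receptor signals through the adaptor MyD88.

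Promoters were examined because a large share of the members moved together and because factors of the RFX family, which act with Foxj1 in ciliated cells, bind a motif called the X-box. Windows of 250 bases before to 50 bases after a transcription start, from RefSeq on GRCm38.p6, were matched for 83 of the 104 members, 77 by symbol and 6 through the gene identifier. The letters GTTGCC, an arm of the X-box, were searched on both strands and were found in 37 of 91 member promoters, or 40.7%, compared with 12.5% of all 32851 promoters of that length. The full X-box, which spells both arms with free bases between them and can contain the first motif, was found on either strand in 3.30% of member promoters and 0.451% of all promoters. The forkhead motif GTAAACA was found in 4.40% of member promoters and 3.65% of all promoters. Among the members that were lower with IL-33 in the edgeR test, 38.7% of 62 promoters held GTTGCC, and among the other members 44.8% of 29 did. The full X-box was found in 0 of the 62 promoters of members lower with IL-33 and in 3 of the 29 others, the shown Cfap298 among them. No test was made of these shares, and a match is a string of letters rather than a bound site. Promoters of 4 members are shown, all of them holding GTTGCC. They belong to the regulator that rose, to a tektin and a regulatory complex gene at least 2-fold lower, and to an assembly factor. The assembly factor holds both X-box arms. The other members at least 2-fold lower (Dnah11, Dnai3, Cfap221, Cfap57, Cfap77 and Tekt3) hold no GTTGCC in their matched windows. Each line gives the 250 bases before the start, 5′ to 3′ on the strand of the gene, with motif matches in capitals. For Tekt2, which has 3 annotated starts, the window with most matches is given.
Mcidas, chr13:112993618-112993867, plus strand: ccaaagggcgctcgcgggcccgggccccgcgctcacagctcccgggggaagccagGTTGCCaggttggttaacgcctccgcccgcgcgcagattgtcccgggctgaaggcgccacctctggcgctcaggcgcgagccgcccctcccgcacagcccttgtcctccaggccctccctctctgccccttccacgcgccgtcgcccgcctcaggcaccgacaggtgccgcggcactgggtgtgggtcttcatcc
Tekt2, chr4:126325689-126325938, minus strand: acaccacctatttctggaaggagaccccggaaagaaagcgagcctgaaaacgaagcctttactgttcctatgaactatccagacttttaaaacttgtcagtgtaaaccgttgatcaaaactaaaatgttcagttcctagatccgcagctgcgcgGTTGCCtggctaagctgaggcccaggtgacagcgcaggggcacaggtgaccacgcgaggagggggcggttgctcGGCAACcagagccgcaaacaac
Drc1, chr5:30281143-30281392, plus strand: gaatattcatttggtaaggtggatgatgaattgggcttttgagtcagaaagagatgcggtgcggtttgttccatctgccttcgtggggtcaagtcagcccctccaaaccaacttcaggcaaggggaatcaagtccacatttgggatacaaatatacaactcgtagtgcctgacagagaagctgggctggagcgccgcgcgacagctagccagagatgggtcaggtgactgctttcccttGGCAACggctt
Cfap298, chr16:90934850-90935099, minus strand: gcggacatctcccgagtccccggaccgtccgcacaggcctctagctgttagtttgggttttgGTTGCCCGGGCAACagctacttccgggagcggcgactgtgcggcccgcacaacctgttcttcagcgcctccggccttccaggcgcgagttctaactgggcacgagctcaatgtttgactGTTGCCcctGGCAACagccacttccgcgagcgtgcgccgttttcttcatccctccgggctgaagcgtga

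Libraries held between 53877663 and 90607218 counts, and the members took up 0.249 to 0.252% of the counts in control mice, 0.172 to 0.181% in IL-33 mice and 0.215 to 0.237% in IL-33+LM8 mice. The deepest library of each group (control 3, IL-33 1 and IL-33+LM8 3) stood apart: across the genes tested, which are not independent of each other, these 3 libraries deviated from their group means together (r = 0.615, 0.584 and 0.585 for the 3 pairs). Odf1, a sperm tail gene that is not a member, was listed at 0, 0.0526 and 0 FPKM in these libraries and at 1.66 to 4.56 FPKM in the other 6. The part of this split in the results was not tested beyond the fits without these libraries, or with them as a term, whose counts are given with each comparison. Whether the library kit kept strand is not given in the sources used here, and 51 members overlap a gene on the opposite strand, so reads of such partners could not be told apart.

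Levels are given as FPKM, fragments per kilobase of transcript scaled to the depth of the library, as deposited. Over all 9 mice the median member stood at 3.53 FPKM, and the range ran from 0.00267 FPKM for Rsph6a to 36.9 FPKM for Foxj1. Foxj1, the master transcription factor of motile cilia, was followed by the cytoplasmic dynein light chain gene Dynlrb2 at 25.3 FPKM, the axonemal gene Ccdc153 at 22.9 FPKM and the IFT-B gene Ift20 at 22.6 FPKM. Dnah17, Dnah14 and Cfap97d1 were at the low end, at 0.171, 0.0408 and 0.0380 FPKM. Of the 104 members, 102 had a mean of at least 10 counts and entered the tests. Cfap97d1 and Rsph6a did not, and they were listed at 0 FPKM in 5 and 8 of the 9 mice, respectively.

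**Figure D1:**
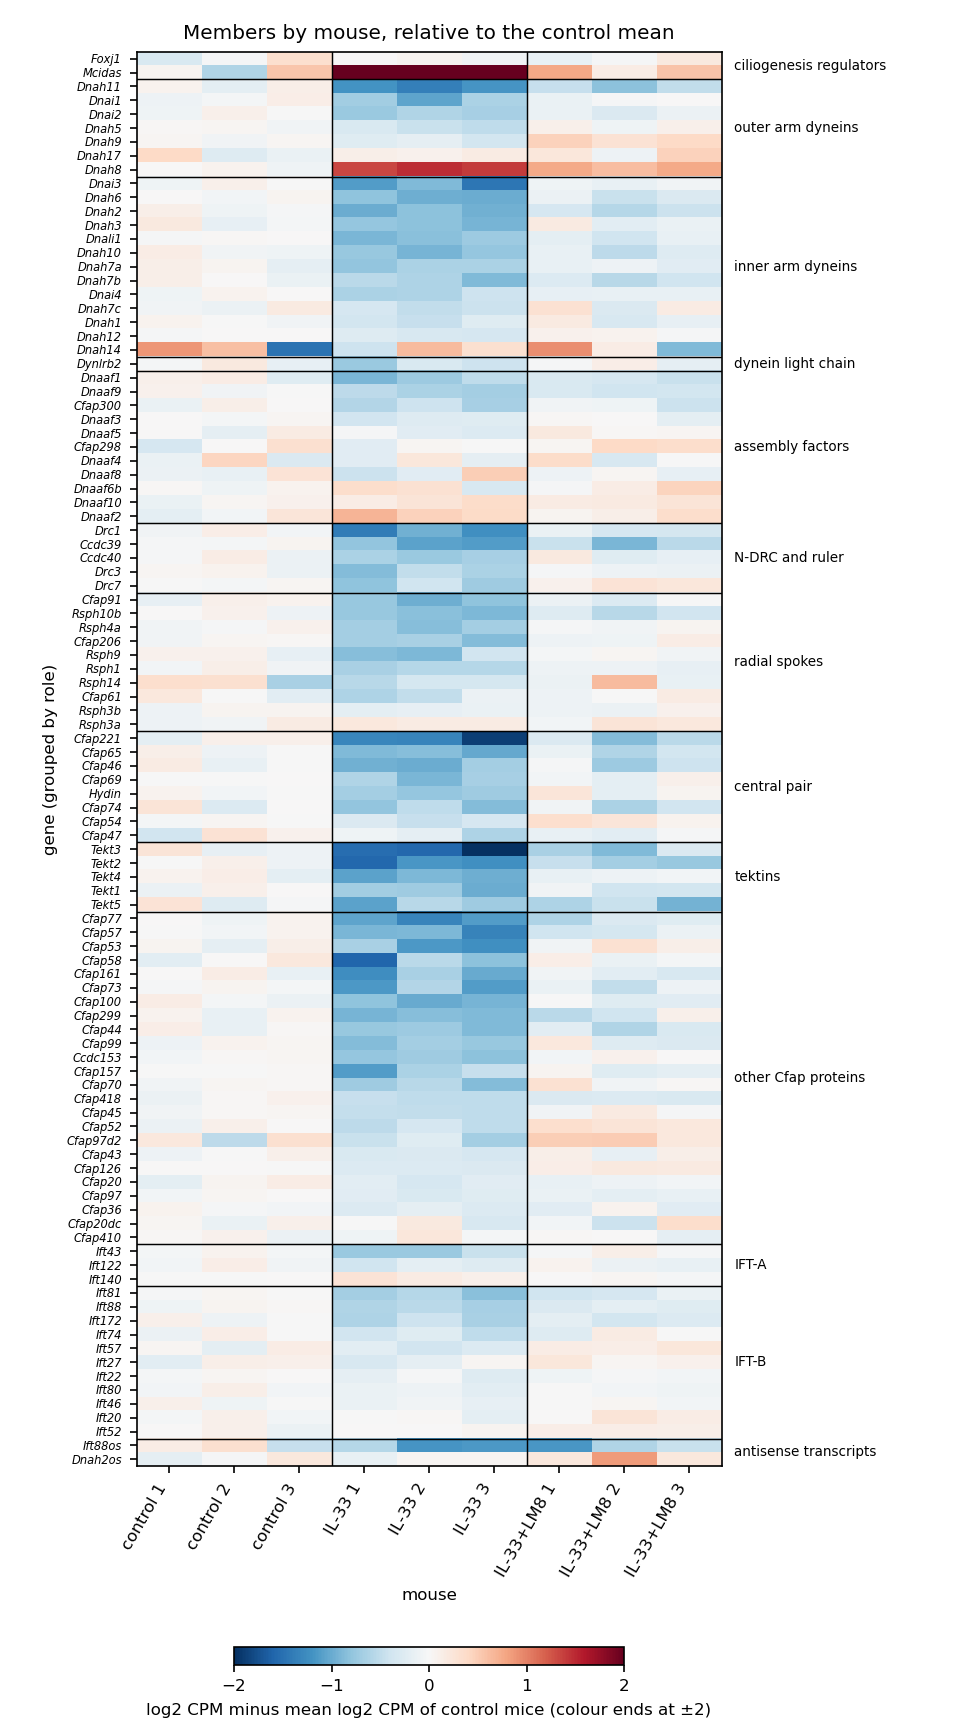
Heat map of the 102 members tested (rows, grouped by role and ordered by the IL-33 mean) in each of the 9 mice (columns). Colour gives log2 CPM (counts scaled to library size) minus the mean of the 3 control mice, from -2 to 2. The IL-33 columns are blue over most rows, with 85 to 92 members below the control mean in each of these mice, and red for Mcidas and Dnah8, while the IL-33+LM8 columns are paler, with 66 or 67 members below it.

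The first comparison asked how the lung transcriptome of IL-33 mice differs from that of control mice. Most axonemal genes were lower after IL-33. Of the 102 members tested, 71 were lower and 3 were higher at an adjusted p under 0.05 (quasi-likelihood test of edgeR, with p adjusted by Benjamini-Hochberg over all genes tested), where 21.2% of all 21519 genes were lower and 22.5% were higher. With a change of at least 2-fold required in addition, 8 members were lower and 2 were higher, compared with 5.83% and 9.94% of all genes. The median log2 fold change of the members tested was -0.60, with the median of all genes at -0.01. Counted mouse by mouse, the median difference of the members from the control mean was -0.61, -0.50 and -0.60 on the log2 scale in the 3 IL-33 mice and between -0.01 and 0.02 in the control mice. Values after ± are SE worked back from the log2 fold change and the quasi-likelihood F statistic of edgeR, with n = 3 in each group. In whole lung, fewer ciliated cells and less RNA per ciliated cell cannot be told apart. Without the deepest library of each group 52 members were lower and 3 higher, and with these libraries as a term 73 and 3. The former fit called 3410 of all 21513 genes lower.

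Among the outer arm dyneins, 5 of 7 were lower with IL-33 and 1, Dnah8, was higher. Dnah11, a heavy chain of the outer arm, measured 2.26, 1.89 and 2.34 FPKM in the control mice, 0.946, 0.839 and 0.939 FPKM in the IL-33 mice and 1.55, 1.18 and 1.504 FPKM in the IL-33+LM8 mice. Every IL-33 mouse was below every control mouse, and the difference was -1.24 ± 0.11 on the log2 scale (edgeR adjusted p = 0.0001295). Cdca7l on the opposite strand moved the other way (0.68 ± 0.18 on the log2 scale, edgeR adjusted p = 0.0179). The heavy chain gene Dnah5 measured 3.497, 3.59 and 3.31 FPKM in the control mice, 2.79, 2.54 and 2.39 FPKM in the IL-33 mice and 3.67, 3.17 and 3.63 FPKM in the IL-33+LM8 mice. Its groups did not overlap either, at -0.42 ± 0.071 on the log2 scale (edgeR adjusted p = 0.002902). Dnai1 and Dnai2, the intermediate chains that anchor the arm, were also lower, at -0.79 ± 0.15 on the log2 scale (edgeR adjusted p = 0.004598) and -0.67 ± 0.084 on the log2 scale (edgeR adjusted p = 0.000683). Dnai1 shares its locus with the antisense gene Enho, which was also lower (-1.15 ± 0.18 on the log2 scale, edgeR adjusted p = 0.00177). Dnah9, the heavy chain of outer arms toward the tip of airway cilia, was at -0.26 ± 0.076 on the log2 scale (edgeR adjusted p = 0.0296), a change that did not pass in 9 of the other settings tried.

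The heavy chain gene Dnah8, best known from sperm, went the opposite way. It measured 0.378, 0.398 and 0.354 FPKM in the control mice, 0.951, 1.05 and 0.980 FPKM in the IL-33 mice and 0.630, 0.561 and 0.621 FPKM in the IL-33+LM8 mice. All IL-33 mice were above all control mice, at 1.41 ± 0.082 on the log2 scale (edgeR adjusted p = 2.11e-05). The 3 sperm and testis markers tested did not pass the test in this comparison. Prm1, Akap4 and Odf1 stood at 1.09 ± 1.66, -0.34 ± 1.52 and -0.036 ± 1.555 (edgeR adjusted p = 0.649, 0.882 and 0.988). Each of these SE is larger than the Dnah8 difference, so no conclusion on Dnah8 is drawn from them. Of the genes on the opposite strand, Glo1 was lower (-0.32 ± 0.057 on the log2 scale, edgeR adjusted p = 0.00356) and 1700097N02Rik was higher (3.18 ± 0.50 on the log2 scale, edgeR adjusted p = 0.002002), the latter with a mean of 45.9 counts beside 1192 for Dnah8. The part of these antisense reads in the result was not tested. Dnah17, another heavy chain known from sperm, stood at 0.095 ± 0.24.

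Inner arm dyneins were lower in 12 of 13 genes, the exception being Dnah14 at its low level. Dnai3, an inner arm intermediate chain, measured 4.95, 5.71 and 5.23 FPKM in the control mice, 2.42, 2.86 and 1.91 FPKM in the IL-33 mice and 4.92, 4.66 and 4.93 FPKM in the IL-33+LM8 mice. The IL-33 mice were all lower, at -1.13 ± 0.15 on the log2 scale (edgeR adjusted p = 0.0008302). Dnali1, a light intermediate chain and the most abundant inner arm member, measured 11.9, 12.4 and 12.3 FPKM in the control mice, 6.46, 6.89 and 7.26 FPKM in the IL-33 mice and 10.5, 9.01 and 10.7 FPKM in the IL-33+LM8 mice. It gave -0.82 ± 0.078 on the log2 scale (edgeR adjusted p = 0.000173), again with no overlap. The heavy chains Dnah6 and Dnah2 stood at -0.92 ± 0.069 on the log2 scale (edgeR adjusted p = 5.87e-05) and -0.92 ± 0.085 on the log2 scale (edgeR adjusted p = 0.000151). Dnah7a, Dnah7b and Dnah7c are near-identical copies whose reads could be split between them, and their log2 fold changes of -0.69, -0.67 and -0.42 are uncertain for that reason. The light chain gene Dynlrb2, shared with cytoplasmic dynein, measured 27.4, 32.7 and 25.2 FPKM in the control mice, 16.9, 22.8 and 20.96 FPKM in the IL-33 mice and 27.4, 30.2 and 24.5 FPKM in the IL-33+LM8 mice. It was at -0.48 ± 0.15 on the log2 scale (edgeR adjusted p = 0.0348), and the adjusted p rose past 0.05 without control mouse 1 or 2 or IL-33 mouse 1 or 3.

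All 5 genes grouped here under the nexin-dynein regulatory complex and the axonemal ruler were lower. Drc1, a core subunit of the complex, measured 9.28, 10.7 and 9.38 FPKM in the control mice, 3.68, 4.997 and 4.13 FPKM in the IL-33 mice and 8.86, 7.51 and 7.52 FPKM in the IL-33+LM8 mice. The lowest control mouse was above the highest IL-33 mouse, and the difference was -1.19 ± 0.13 on the log2 scale (edgeR adjusted p = 0.000293). Ccdc39 and Ccdc40, which form the ruler that sets the repeat of arms and spokes along the axoneme, were at -0.98 ± 0.099 on the log2 scale (edgeR adjusted p = 0.000234) and -0.68 ± 0.088 on the log2 scale (edgeR adjusted p = 0.000779). The regulatory complex subunits Drc3 and Drc7 were at -0.65 ± 0.11 on the log2 scale (edgeR adjusted p = 0.00299) and -0.63 ± 0.12 on the log2 scale (edgeR adjusted p = 0.00549).

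Radial spoke genes were lower in 6 of the 10 tested. Rsph1, a spoke head protein, measured 20.2, 22.9 and 20.1 FPKM in the control mice, 13.3, 14.1 and 13.9 FPKM in the IL-33 mice and 19.4, 19.1 and 18.3 FPKM in the IL-33+LM8 mice. Its groups did not overlap, at -0.60 ± 0.078 on the log2 scale (edgeR adjusted p = 0.000784). Rsph10b was at -0.83 ± 0.088 on the log2 scale (edgeR adjusted p = 0.000304), while Pms2, which overlaps it on the same strand, was higher (0.45 ± 0.090 on the log2 scale, edgeR adjusted p = 0.005901). Rsph3a and Rsph3b, near-identical copies of a spoke stalk gene, did not pass the test, at 0.18 ± 0.088 (edgeR adjusted p = 0.152) and -0.16 ± 0.070 (edgeR adjusted p = 0.101), and reads could be split between them.

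Central pair genes were lower in 7 of 8. Hydin, a large protein of the central pair, measured 2.08, 1.94 and 1.99 FPKM in the control mice, 1.25, 1.18 and 1.2 FPKM in the IL-33 mice and 2.33, 1.69 and 2.03 FPKM in the IL-33+LM8 mice. The IL-33 mice were all lower, at -0.72 ± 0.067 on the log2 scale (edgeR adjusted p = 0.000158). Cfap221 had the largest fall of the group and measured 1.595, 1.995 and 1.98 FPKM in the control mice, 0.740, 0.736 and 0.489 FPKM in the IL-33 mice and 1.505, 0.978 and 1.24 FPKM in the IL-33+LM8 mice, which gave -1.49 ± 0.22 on the log2 scale (edgeR adjusted p = 0.00153). Cfap65, Cfap69 and Cfap46 were at -0.92 ± 0.075 on the log2 scale (edgeR adjusted p = 8.97e-05), -0.72 ± 0.095 on the log2 scale (edgeR adjusted p = 0.000861) and -0.87 ± 0.12 on the log2 scale (edgeR adjusted p = 0.00103).

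Each of the 5 tektin genes was lower, and their median log2 fold change of -0.98 was the lowest of the roles with at least 3 members. Tekt2 measured 6.37, 6.91 and 5.99 FPKM in the control mice, 2.15, 2.86 and 2.695 FPKM in the IL-33 mice and 4.62, 3.86 and 3.69 FPKM in the IL-33+LM8 mice. IL-33 mice were below control mice throughout, at -1.31 ± 0.14 on the log2 scale (edgeR adjusted p = 0.000328). Tekt4 gave 5.08, 5.35 and 4.23 FPKM in the control mice, 2.32, 2.599 and 2.43 FPKM in the IL-33 mice and 4.34, 4.42 and 4.57 FPKM in the IL-33+LM8 mice, and a difference of -0.98 ± 0.14 on the log2 scale (edgeR adjusted p = 0.00105). Tekt1, the most abundant tektin gene, was at -0.79 ± 0.12 on the log2 scale (edgeR adjusted p = 0.00147). Tekt3 had the largest fall of any member, -1.81 ± 0.42 on the log2 scale (edgeR adjusted p = 0.01104), from levels of only 0.373 to 0.501 FPKM in control mice.

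Of 24 other Cfap members tested, 20 were lower. The place of these proteins in the cilium differs from gene to gene. Roles were set from textbook knowledge, and Ccdc153, which has no Cfap name, was placed here rather than with the regulatory complex. Ccdc153 measured 25.4, 27.1 and 27.5 FPKM in the control mice, 15.6, 16.4 and 14.9 FPKM in the IL-33 mice and 25.4, 27.5 and 26.3 FPKM in the IL-33+LM8 mice. The groups were far apart, at -0.76 ± 0.059 on the log2 scale (edgeR adjusted p = 7.04e-05). Cfap57 measured 3.63, 3.54 and 3.86 FPKM in the control mice, 1.94, 1.97 and 1.44 FPKM in the IL-33 mice and 2.77, 2.81 and 3.33 FPKM in the IL-33+LM8 mice, which gave -1.04 ± 0.14 on the log2 scale (edgeR adjusted p = 0.000827). Cfap77, a microtubule inner protein, was at -1.16 ± 0.14 on the log2 scale (edgeR adjusted p = 0.000641), while Gm13394 on the same strand was higher (1.05 ± 0.10 on the log2 scale, edgeR adjusted p = 0.00021), and Cfap53, needed for cilia of the left-right organiser, was at -0.99 ± 0.19 on the log2 scale (edgeR adjusted p = 0.00482). Cfap36 and Cfap126 were nearer to the control level, at -0.24 ± 0.066 on the log2 scale (edgeR adjusted p = 0.0243) and -0.27 ± 0.070 on the log2 scale (edgeR adjusted p = 0.01804), and Cfap20, Cfap20dc, Cfap410 and Cfap97d2 did not pass the test.

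**Figure D2:**
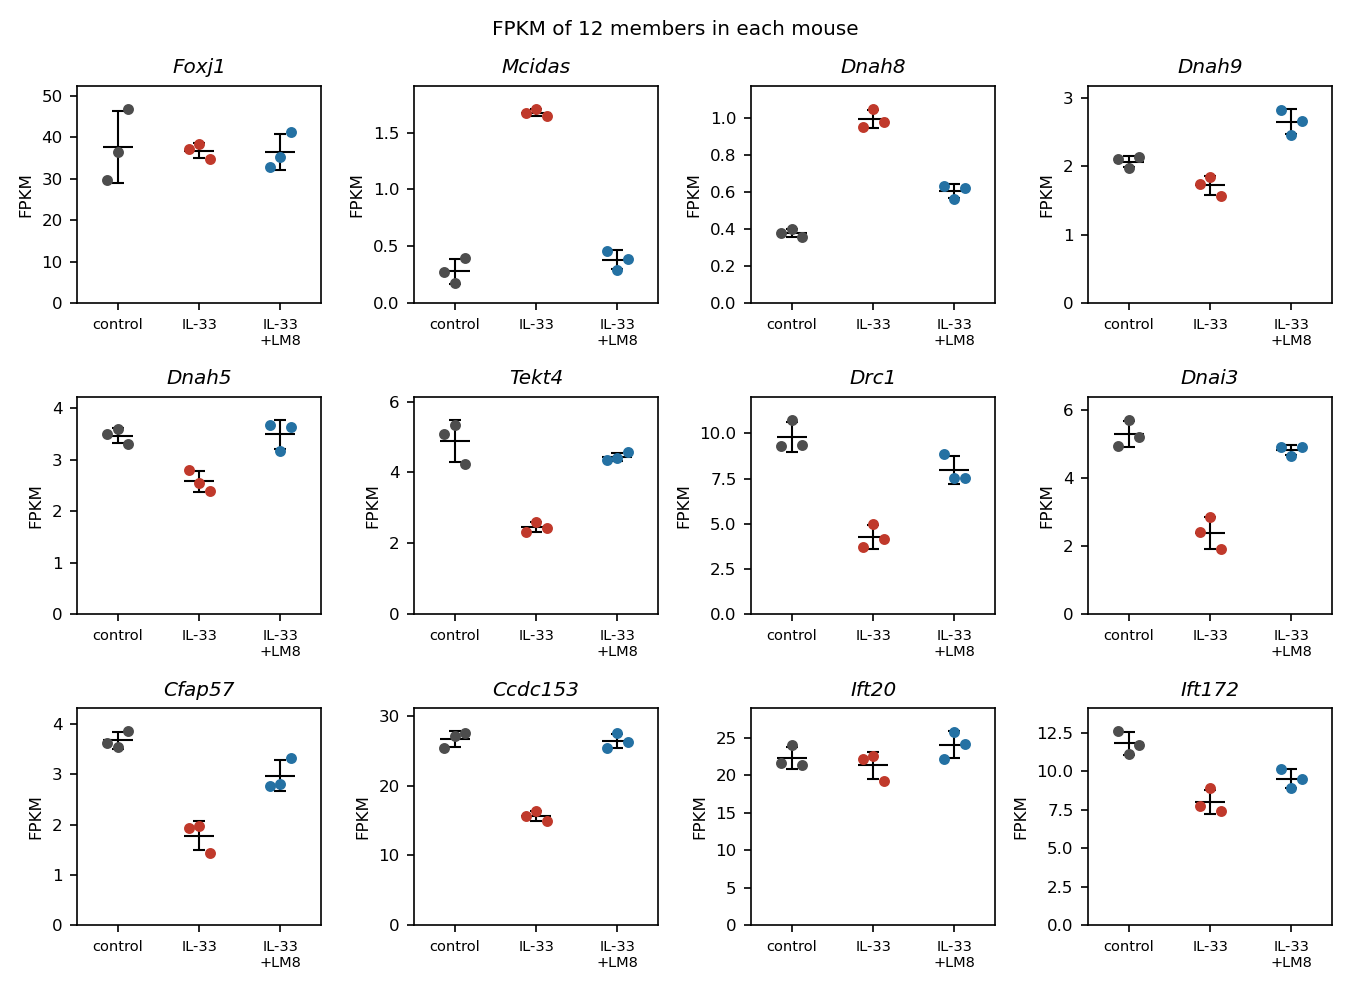
FPKM of 12 members in each of the 9 mice. Points are mice, horizontal bars are group means and error bars are SD (n = 3), and every vertical axis starts at 0. Foxj1 and Ift20 overlap between the groups, Mcidas and Dnah8 are higher in the IL-33 mice, and the remaining members are lower there than in the control mice.

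Genes that serve the building of cilia are given here beside the structural members. Of 73 structural members tested (dyneins, regulatory complex, spokes, central pair, tektins and other Cfap proteins), 61 were lower and their median log2 fold change was -0.71. Of 14 IFT genes, 6 were lower and the median was -0.22, and of 11 dynein assembly factors 4 were lower, 1 was higher and the median was -0.08. The difference between these groups of genes was not tested. Ift20, which also works at the Golgi, measured 21.6, 24.1 and 21.4 FPKM in the control mice, 22.2, 22.6 and 19.3 FPKM in the IL-33 mice and 22.2, 25.9 and 24.2 FPKM in the IL-33+LM8 mice. Its groups overlapped (-0.056 ± 0.081 on the log2 scale, edgeR adjusted p = 0.627). Ift52, a core IFT-B subunit, did not pass the test either, at 0.024 ± 0.073 on the log2 scale (edgeR adjusted p = 0.823). Ift172, the largest IFT-B subunit, measured 12.6, 11.1 and 11.7 FPKM in the control mice, 7.73, 8.898 and 7.45 FPKM in the IL-33 mice and 10.2, 8.901 and 9.52 FPKM in the IL-33+LM8 mice, with every IL-33 mouse below the controls (-0.55 ± 0.082 on the log2 scale, edgeR adjusted p = 0.00152).

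Within IFT-A, which carries cargo back to the cell body, Ift43 measured 16.8, 18.4 and 16.97 FPKM in the control mice, 10.4, 10.4 and 12.5 FPKM in the IL-33 mice and 16.9, 18.3 and 16.7 FPKM in the IL-33+LM8 mice. It was lower, at -0.64 ± 0.10 on the log2 scale (edgeR adjusted p = 0.00205). Ift122 was at -0.28 ± 0.090 on the log2 scale (edgeR adjusted p = 0.0412) and lost the call in 11 of the other settings. Ift140, whose opposite strand holds Tmem204 (-1.24 ± 0.080 on the log2 scale, edgeR adjusted p = 3.14e-05), did not pass the test (0.18 ± 0.066 on the log2 scale, edgeR adjusted p = 0.0633). Among the assembly factors, Dnaaf9 was at -0.61 ± 0.066 on the log2 scale (edgeR adjusted p = 0.000327) and Dnaaf3 at -0.29 ± 0.079 on the log2 scale (edgeR adjusted p = 0.0216). Cfap298, whose promoter is shown above, measured 9.997, 12.8 and 15.9 FPKM in the control mice, 10.9, 12.99 and 12.5 FPKM in the IL-33 mice and 12.9, 16.2 and 15.8 FPKM in the IL-33+LM8 mice. The groups overlapped (-0.081 ± 0.17 on the log2 scale, edgeR adjusted p = 0.743). Dnaaf2, a co-chaperone of dynein assembly, was higher (0.50 ± 0.14 on the log2 scale, edgeR adjusted p = 0.0266) and lost the call without either of control mice 1 and 2 or IL-33 mice 1 and 2. The 2 antisense transcripts, Ift88os and Dnah2os, did not pass the test, at -1.01 ± 0.48 (edgeR adjusted p = 0.134) and -0.031 ± 0.25 (edgeR adjusted p = 0.937).

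Of the 2 regulators among the members, 1 was higher and 0 were lower by edgeR. Foxj1 measured 29.5, 36.3 and 46.7 FPKM in the control mice, 37.1, 38.3 and 34.7 FPKM in the IL-33 mice and 32.8, 35.2 and 41.1 FPKM in the IL-33+LM8 mice. The groups overlapped, with a difference of -0.023 ± 0.15 on the log2 scale (edgeR adjusted p = 0.922), and the sign turned under other settings, to 0.01 with general epithelium scaling and to 0.16 without the deepest library of each group. Mcidas, a coactivator that opens multiciliated cell differentiation, measured 0.272, 0.174 and 0.395 FPKM in the control mice, 1.68, 1.71 and 1.65 FPKM in the IL-33 mice and 0.457, 0.293 and 0.391 FPKM in the IL-33+LM8 mice. Every IL-33 mouse stood above every control mouse, at 2.56 ± 0.33 on the log2 scale (edgeR adjusted p = 0.000767), from 27 to 73 counts in the control mice to 221 to 273 counts in the IL-33 mice.

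Genes of the same pathway outside the naming rule were read from a list of 79 symbols, of which 65 were matched in the table and tested. Of these, 37 were lower and 9 were higher with IL-33, with a median log2 fold change of -0.43. Higher genes were mostly regulators: 7 of 12 were higher and 1 was lower, where 22.5% of all genes were higher and 21.2% were lower. Among these 7 were Tfdp1 (0.87 ± 0.066 on the log2 scale, edgeR adjusted p = 6.33e-05) and E2f4 (0.34 ± 0.089 on the log2 scale, edgeR adjusted p = 0.0191). Ccno, a cyclin-like protein required for the mass production of basal bodies, measured 1.19, 1.25 and 1.39 FPKM in the control mice, 3.06, 2.79 and 3.12 FPKM in the IL-33 mice and 1.36, 0.625 and 0.887 FPKM in the IL-33+LM8 mice. The IL-33 mice were all above the others, at 1.23 ± 0.14 on the log2 scale, edgeR adjusted p = 0.000406. Cdc20b, which takes part in centriole release, measured 0.411, 0.158 and 0.484 FPKM in the control mice, 1.999, 1.24 and 1.98 FPKM in the IL-33 mice and 0.218, 0.300 and 0.328 FPKM in the IL-33+LM8 mice, again with no overlap (2.32 ± 0.46 on the log2 scale, edgeR adjusted p = 0.00556). Deup1, the scaffold of the deuterosome from which centrioles of ciliated cells grow, measured 0.852, 0.876 and 0.829 FPKM in the control mice, 2.703, 2.11 and 2.54 FPKM in the IL-33 mice and 0.862, 1.06 and 0.850 FPKM in the IL-33+LM8 mice. It was higher at 1.53 ± 0.15 on the log2 scale, edgeR adjusted p = 0.000221. Plk4, the kinase that starts centriole duplication in dividing cells also, measured 1.33, 1.197 and 1.34 FPKM in the control mice, 4.49, 4.101 and 4.34 FPKM in the IL-33 mice and 1.902, 2.36 and 2.22 FPKM in the IL-33+LM8 mice, a difference of 1.75 ± 0.088 on the log2 scale, edgeR adjusted p = 1.13e-05. Myb was at 0.51 ± 0.12 on the log2 scale, edgeR adjusted p = 0.0119, and it too is used by dividing blood precursors.

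Ccno, Mcidas and Cdc20b are neighbours on chromosome 13, all on the plus strand, with gaps of 3.07 kb and 34.7 kb from Mcidas in the table's own coordinates. Gpx8, which lies within the Cdc20b locus on the minus strand, was lower with IL-33 (-0.34 ± 0.11 on the log2 scale, edgeR adjusted p = 0.0382). Gmnc, which acts upstream of Mcidas, did not pass the test (-0.29 ± 0.18 on the log2 scale, edgeR adjusted p = 0.243), nor did Trp73 (0.028 ± 0.13 on the log2 scale, edgeR adjusted p = 0.889) or Rfx3 (-0.047 ± 0.092 on the log2 scale, edgeR adjusted p = 0.728). Rfx2 was lower (-0.51 ± 0.11 on the log2 scale, edgeR adjusted p = 0.00841).

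**Figure D3:**
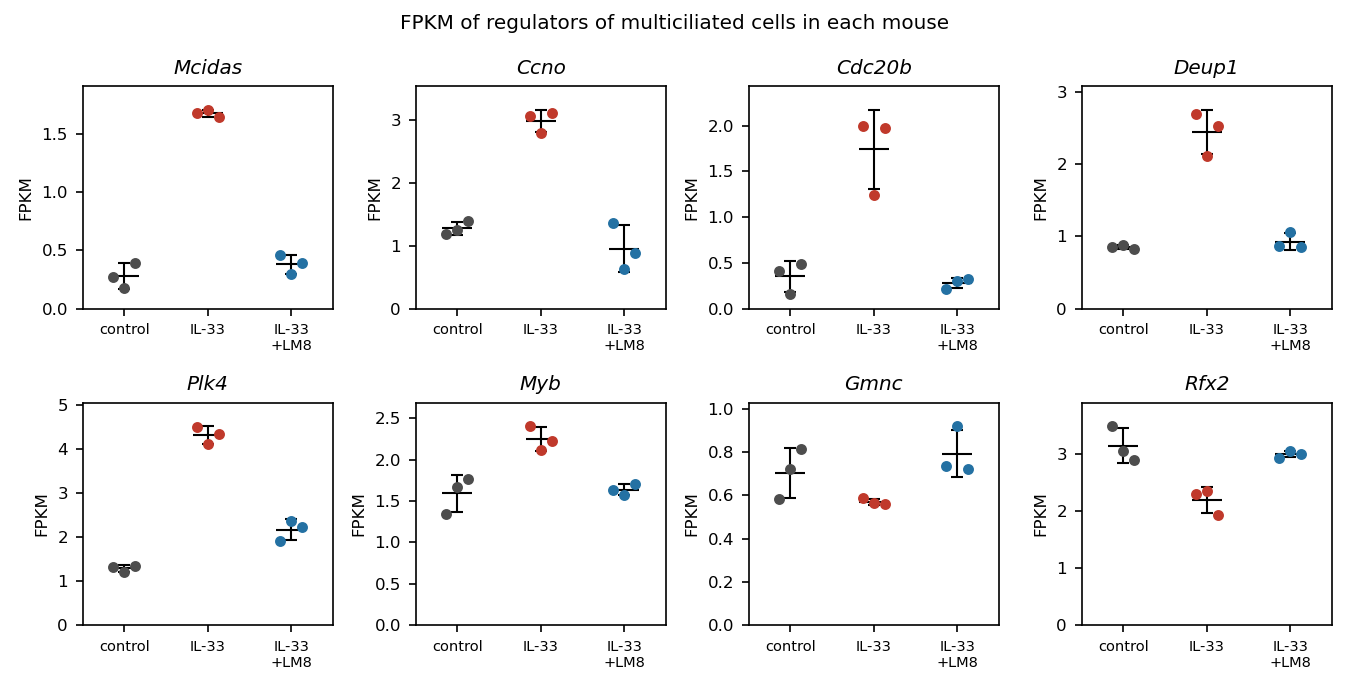
FPKM of Mcidas and of 7 regulators outside the naming rule in each of the 9 mice. Points are mice, horizontal bars are group means and error bars are SD (n = 3), with axes starting at 0. In Mcidas, Ccno, Cdc20b, Deup1, Plk4 and Myb the 3 IL-33 mice sit above all other mice, while in Rfx2 they sit below them.

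Markers of the lung's cell types moved between the groups too. The 7 general epithelial genes summed to 315 to 329 FPKM in control mice, 309 to 325 FPKM in IL-33 mice and 281 to 300 FPKM in IL-33+LM8 mice. The 4 multiciliated cell genes outside the rule (Tmem212, Sec14l3, Capsl and Sntn) summed to 608 to 660, 291 to 300 and 417 to 468 FPKM in these groups. Sec14l3 held most of that sum, and only Sec14l3 among them was lower in IL-33+LM8 than in control mice (-0.51 ± 0.074 on the log2 scale, edgeR adjusted p = 0.00347). Tmem212, Sntn and Capsl did not pass that test, at -0.11 ± 0.093, -0.069 ± 0.13 and 0.077 ± 0.17 (edgeR adjusted p = 0.434, 0.746 and 0.783). Capsl did not pass the test with IL-33 against control either (-0.27 ± 0.13 on the log2 scale, edgeR adjusted p = 0.132). The 4 club cell genes fell in sum from 21646 to 23712 FPKM in control mice to 8455 to 9496 FPKM in IL-33 mice, with 17075 to 18458 FPKM in IL-33+LM8 mice. The 5 alveolar type 2 genes, which mark the labelled tissue, summed to 12965 to 14057, 6842 to 7045 and 11359 to 12487 FPKM. Sftpc held most of that sum, and Sftpa1 did not fall, with group means of 931, 1038 and 1477 FPKM. The 5 goblet cell genes stood at 7.64 to 18.3, 440 to 479 and 522 to 549 FPKM. Clca1 held most of the goblet sum after IL-33, and Muc5ac was lower with LM8, with group means of 0.177, 12.5 and 6.09 FPKM. The 4 alveolar type 1 genes stood at 1167 to 1258, 628 to 660 and 930 to 984 FPKM, although Pdpn among them rose, with group means of 47.4, 58.0 and 58.9 FPKM. The 3 endothelial genes stood at 490 to 565, 325 to 358 and 499 to 518 FPKM. The 3 general leukocyte genes stood at 50.003 to 54.7, 214 to 234 and 120 to 127 FPKM, but the kinds of leukocyte moved in different directions. The 3 neutrophil genes stood at 14.8 to 20.7, 51.5 to 71.3 and 621 to 717 FPKM, highest with LM8. The 4 eosinophil genes stood at 83.4 to 91.8, 564 to 616 and 135 to 169 FPKM, and Ear2 held most of that sum. The 3 macrophage genes stood at 220.3 to 249.4, 4168 to 4766 and 1841 to 2171 FPKM. Chil3 held most of the macrophage sum, and Marco went the other way, with group means of 7.41, 2.40 and 5.74 FPKM. Of the markers in these lists, only the eosinophil gene Epx was listed at 0 in every mouse of a group, the control mice. Scaled to the general epithelial genes in place of all genes, the median log2 fold change of the members was -0.56 with IL-33. The part of the other cell types in the members' results was not tested.

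The second comparison asked what LM8 changed in mice that all received IL-33. Axonemal genes were higher in the LM8-treated mice. Of 102 members tested, 50 were higher and 2, Mcidas and Dnah8, were lower, where 9.71% of all 21520 genes were higher and 10.3% were lower. At a change of at least 2-fold, 2 members were higher (Dnai3 and Cfap53) and 1 was lower (Mcidas), compared with 1.32% and 3.48% of all genes. The median log2 fold change of the members was 0.45 and that of all genes was -0.01. This comparison shares its IL-33 mice with the first, so the counts of the comparisons are not independent of each other. Of the 71 members lower with IL-33, 48 were higher with LM8 added. The same share among all genes lower with IL-33 was not computed, and genes low in the shared IL-33 mice are favoured to be higher here. The count of higher members was 15 without the deepest library of each group and 51 with these libraries as a term. Calls over all genes fell in the former fit too, to 717 of 21510 higher, and the members' median was 0.44. Without any single mouse the count of higher members was between 34 and 47, lowest without IL-33 mouse 3. At least 2-fold higher members numbered 0 without IL-33 mouse 3 and 4 without IL-33 mouse 2.

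Dynein arm genes were among those higher with LM8. Dnai3 went from 1.91 to 2.86 FPKM in IL-33 mice to 4.66 to 4.93 FPKM with LM8 (1.02 ± 0.15 on the log2 scale, edgeR adjusted p = 0.00311). Outer arm genes were higher in 5 of 7, with 0.73 ± 0.14 on the log2 scale (edgeR adjusted p = 0.0104) for Dnai1, 0.65 ± 0.12 on the log2 scale (edgeR adjusted p = 0.00916) for Dnah11, 0.63 ± 0.082 on the log2 scale (edgeR adjusted p = 0.00196) for Dnah9, 0.48 ± 0.089 on the log2 scale (edgeR adjusted p = 0.00919) for Dnai2 and 0.45 ± 0.082 on the log2 scale (edgeR adjusted p = 0.00875) for Dnah5. Inner arm genes were higher in 9 of 13, among them Dnah6 at 0.63 ± 0.097 on the log2 scale (edgeR adjusted p = 0.00402), Dnali1 at 0.56 ± 0.098 on the log2 scale (edgeR adjusted p = 0.00689) and Dnah2 at 0.47 ± 0.094 on the log2 scale (edgeR adjusted p = 0.0124). Dynlrb2 did not pass the test (0.45 ± 0.14 on the log2 scale, edgeR adjusted p = 0.0681). Dnah8 was lower (-0.70 ± 0.079 on the log2 scale, edgeR adjusted p = 0.00113), with the LM8-treated mice at 0.561 to 0.630 FPKM, between the other groups and overlapping neither.

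Regulatory complex and ruler genes were higher in 4 of 5. Drc1 rose from 3.68 to 4.997 FPKM to 7.51 to 8.86 FPKM (0.91 ± 0.13 on the log2 scale, edgeR adjusted p = 0.00335), and Drc7, Drc3 and Ccdc40 were at 0.82 ± 0.13 on the log2 scale (edgeR adjusted p = 0.00496), 0.56 ± 0.11 on the log2 scale (edgeR adjusted p = 0.0102) and 0.61 ± 0.12 on the log2 scale (edgeR adjusted p = 0.01199). Ccdc39 was the exception, with overlapping groups (0.36 ± 0.14 on the log2 scale, edgeR adjusted p = 0.133). Spoke genes were higher in 6 of 10, with Rsph1 at 0.47 ± 0.070 on the log2 scale (edgeR adjusted p = 0.00371) and Rsph10b at 0.42 ± 0.10 on the log2 scale (edgeR adjusted p = 0.0272). Rsph3a and Rsph3b stood at -0.045 ± 0.096 and 0.12 ± 0.080, neither past the threshold (edgeR adjusted p = 0.805 and 0.382).

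Central pair genes were higher in 5 of 8 with LM8, and tektins in 3 of 5. Hydin reached 1.69 to 2.33 FPKM from 1.18 to 1.25 FPKM (0.75 ± 0.11 on the log2 scale, edgeR adjusted p = 0.00376), and Cfap69, Cfap65 and Cfap221 were at 0.67 ± 0.11 on the log2 scale (edgeR adjusted p = 0.00616), 0.55 ± 0.12 on the log2 scale (edgeR adjusted p = 0.0173) and 0.92 ± 0.25 on the log2 scale (edgeR adjusted p = 0.041). Cfap46 did not pass the test (0.50 ± 0.18 on the log2 scale, edgeR adjusted p = 0.09803). Tekt4, the tektin with the clearest change, reached 4.34 to 4.57 FPKM from 2.32 to 2.60 FPKM (0.87 ± 0.12 on the log2 scale, edgeR adjusted p = 0.00231). Tekt2 and Tekt1 were at 0.67 ± 0.16 on the log2 scale (edgeR adjusted p = 0.0272) and 0.51 ± 0.14 on the log2 scale (edgeR adjusted p = 0.0393). Tekt3 had a larger difference that did not pass the test at its low count (1.20 ± 0.47 on the log2 scale, edgeR adjusted p = 0.126).

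Other Cfap members were higher in 13 of 24 with LM8. Ccdc153 was at 25.4 to 27.5 FPKM, up from 14.9 to 16.4 FPKM (0.77 ± 0.068 on the log2 scale, edgeR adjusted p = 0.000479). Cfap53 reached 3.87 to 4.91 FPKM from 1.71 to 2.61 FPKM (1.10 ± 0.19 on the log2 scale, edgeR adjusted p = 0.006504), and Cfap57, Cfap77 and Cfap126 were at 0.75 ± 0.15 on the log2 scale (edgeR adjusted p = 0.0133), 0.78 ± 0.17 on the log2 scale (edgeR adjusted p = 0.0175) and 0.43 ± 0.071 on the log2 scale (edgeR adjusted p = 0.00572). Cfap36 overlapped between the groups (0.11 ± 0.099 on the log2 scale, edgeR adjusted p = 0.527). Cfap97d2 and the IFT gene Ift57 were the 2 members higher with LM8 that had not passed the test as lower with IL-33.

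Of the 14 IFT genes 4 were higher with LM8, with a median log2 fold change of 0.23. Ift43 was at 0.65 ± 0.10 on the log2 scale (edgeR adjusted p = 0.00476). Ift172 did not pass the test (0.26 ± 0.083 on the log2 scale, edgeR adjusted p = 0.0701), and Ift20, Ift52, Ift122 and Ift140 were at 0.18 ± 0.091, 0.094 ± 0.059, 0.20 ± 0.095 and -0.19 ± 0.070 (edgeR adjusted p = 0.218, 0.331, 0.1899 and 0.111). Among the assembly factors 1 of 11 was higher, Dnaaf9 (0.24 ± 0.061 on the log2 scale, edgeR adjusted p = 0.0333), while Dnaaf3, Cfap298 and Dnaaf2 were at 0.23 ± 0.096, 0.32 ± 0.12 and -0.34 ± 0.12 (edgeR adjusted p = 0.154, 0.115 and 0.101).

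Of the regulators, Mcidas was lower with LM8 and Foxj1 did not pass the test. Mcidas was at 0.293 to 0.457 FPKM with LM8, below all IL-33 mice and overlapping the control mice (-2.13 ± 0.23 on the log2 scale, edgeR adjusted p = 0.000955). Foxj1 was at -0.00092 ± 0.090 on the log2 scale (edgeR adjusted p = 0.997), and its sign turned under 9 other settings. Outside the rule, Ccno (-1.63 ± 0.27 on the log2 scale, edgeR adjusted p = 0.00571), Cdc20b (-2.59 ± 0.31 on the log2 scale, edgeR adjusted p = 0.001502), Deup1 (-1.39 ± 0.17 on the log2 scale, edgeR adjusted p = 0.00153), Plk4 (-0.98 ± 0.10 on the log2 scale, edgeR adjusted p = 0.000861) and Myb (-0.45 ± 0.084 on the log2 scale, edgeR adjusted p = 0.00941) were lower with LM8, and Rfx2 was higher (0.46 ± 0.093 on the log2 scale, edgeR adjusted p = 0.0131). Of the 65 pathway genes tested, 21 were higher and 5 were lower, and those 5 were these regulators.

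**Figure D4:**
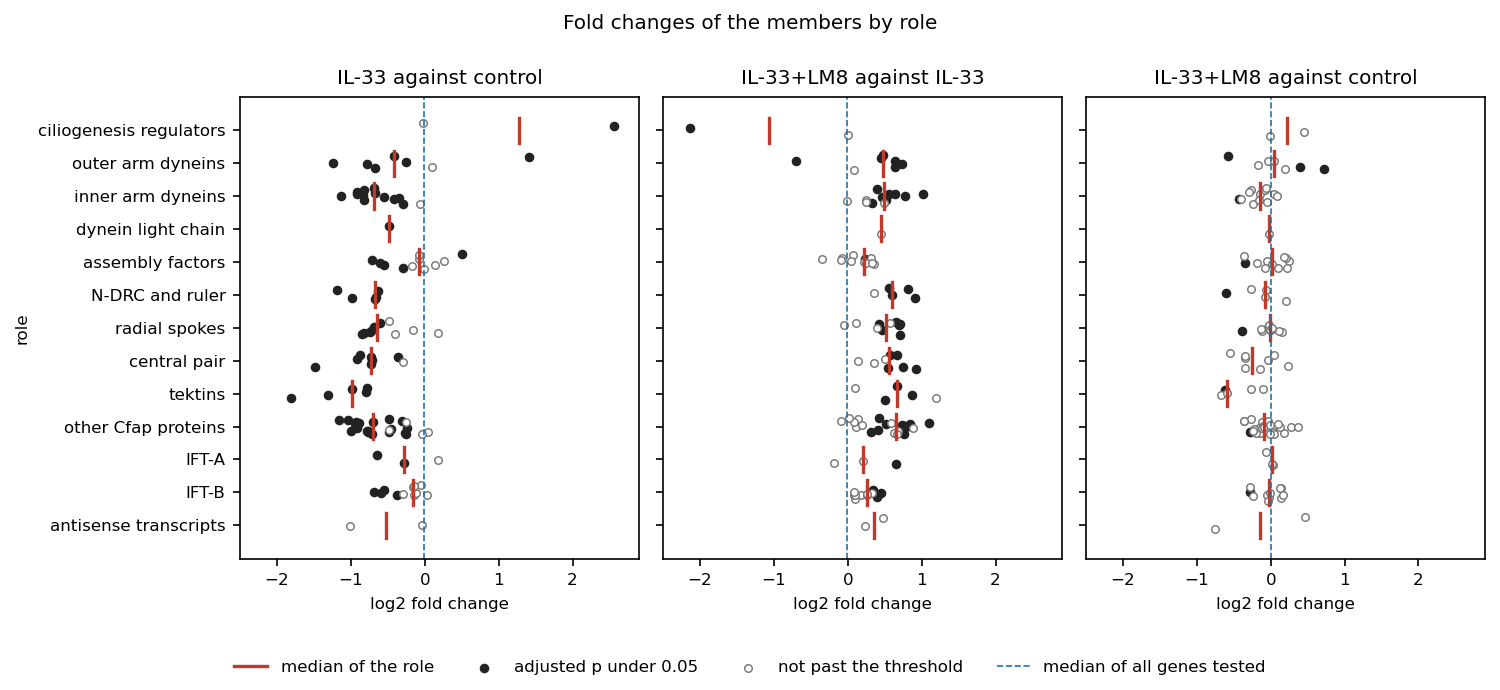
Log2 fold changes of the 102 members tested (points) by role in the 3 comparisons. Filled points passed an adjusted p under 0.05, open points did not, red bars are medians of a role and the dashed line is the median of all genes tested. Most points lie left of the line with IL-33 against control, where 71 members were lower, right of it when LM8 was added, where 50 were higher, and around it in the third panel.

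The third comparison set LM8-treated IL-33 mice against control mice. Few members differed: 8 of 102 tested (7.84%) were lower and 2 (1.96%) were higher, where 9.34% of all 21518 genes were lower and 13.2% were higher. At a change of at least 2-fold, edgeR called 0 members, where 1.67% of all genes were lower and 5.2% were higher, and 0 members passed an unadjusted p under 0.05 with that change, with DESeq2 and limma also calling 0. The median log2 fold change of the members was -0.05, close to that of all genes at 0.00191, and it turned to 0.07 with general epithelium scaling, which moved the median of all genes to 0.13 and gave 2 members lower and 6 higher. With the replicate number as a block 16 members were lower and 2 higher. Without the deepest library of each group 1 was lower and 1 higher, and with these libraries as a term 7 and 2. The former fit called 1203 of all 21508 genes lower and 1714 higher. The number lower was 4 without control mouse 1 and 5 without either IL-33+LM8 mouse 2 or IL-33+LM8 mouse 3. In the 3 LM8-treated mice the median difference of the members from the control mean was -0.07, -0.11 and -0.08 on the log2 scale.

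The 8 members that stayed lower, a share no larger than that of all genes, came from several roles. They were Tekt2, Ccdc39, Dnah11, Dnah2, Rsph10b, Dnaaf9, Cfap418 and Ift172, and all 8 were also lower with IL-33 alone. Tekt2 remained at 3.69 to 4.62 FPKM, below the 5.99 to 6.91 FPKM of control mice (-0.63 ± 0.12 on the log2 scale, edgeR adjusted p = 0.0126). Ccdc39 was at 2.89 to 4.06 FPKM, compared with 5.46 to 5.80 FPKM (-0.61 ± 0.12 on the log2 scale, edgeR adjusted p = 0.0131). Dnah11, Dnah2 and Dnaaf9 were at -0.58 ± 0.13 on the log2 scale (edgeR adjusted p = 0.0202), -0.43 ± 0.096 on the log2 scale (edgeR adjusted p = 0.0184) and -0.35 ± 0.063 on the log2 scale (edgeR adjusted p = 0.00805), and Rsph10b, Ift172 and Cfap418 at -0.39 ± 0.11 on the log2 scale (edgeR adjusted p = 0.0402), -0.27 ± 0.075 on the log2 scale (edgeR adjusted p = 0.0402) and -0.28 ± 0.082 on the log2 scale (edgeR adjusted p = 0.0455). With general epithelium scaling Tekt2 and Ccdc39 still passed the test as lower and the other 6 did not.

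The 2 members above control were heavy chains of the outer arm. Dnah9 measured 2.105, 1.98 and 2.13 FPKM in the control mice, 1.75, 1.84 and 1.57 FPKM in the IL-33 mice and 2.83, 2.46 and 2.67 FPKM in the IL-33+LM8 mice. The LM8-treated mice were above both other groups, and the difference from control was 0.39 ± 0.075 on the log2 scale (edgeR adjusted p = 0.0107). Dnah8 was at 0.72 ± 0.097 on the log2 scale (edgeR adjusted p = 0.00265). Of the 8 members at least 2-fold lower with IL-33, Tekt2 and Dnah11 were thus still lower than in control mice, and the other 6 did not pass the test. Their differences from control were -0.59 ± 0.36 on the log2 scale (edgeR adjusted p = 0.278) for Tekt3, -0.54 ± 0.20 on the log2 scale (edgeR adjusted p = 0.09397) for Cfap221, -0.36 ± 0.15 on the log2 scale (edgeR adjusted p = 0.122) for Cfap77, -0.27 ± 0.11 on the log2 scale (edgeR adjusted p = 0.121) for Cfap57, -0.26 ± 0.10 on the log2 scale (edgeR adjusted p = 0.104) for Drc1 and -0.094 ± 0.088 on the log2 scale (edgeR adjusted p = 0.492) for Dnai3, the last of which turned to 0.033 with general epithelium scaling. In all 8 the FPKM of every LM8-treated mouse was below that of every control mouse. Among all members, 31 were separated in this way, 7 were separated the other way and 66 overlapped. The 8 were picked as lower than these same control mice, which favours such a separation. The same count over all genes is not given here, so no incomplete return is concluded from it. Mcidas was at 0.45 ± 0.40 on the log2 scale (edgeR adjusted p = 0.467). A p that misses the threshold does not show that the groups were equal.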

How the data were processed

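Whole lung RNA from 9 mice, 3 per group, was sequenced with paired ends. The authors deposited 1 table with whole-number counts and FPKM for each gene and mouse, and no per-sample column was left unused. The submitters' processing notes name mm10, Bowtie 0.12.2, HISAT2 2.0 and StringTie 1.3.0, while gene positions in the table differed from the GRCm38 promoter windows, so positions from each were kept apart. Deposited counts were tested with edgeR 4.0.16 (R 4.3.3; TMM factors, glmQLFit and glmQLFTest) on the 6 mice of each comparison, over genes with a mean of at least 10 counts. P-values were adjusted by Benjamini-Hochberg over all genes tested, and calls took an adjusted p under 0.05, alone or with a change of 1 or more on the log2 scale in either direction. FPKM values, made by the authors, served for levels and, as log2(FPKM + 1) or with 0.1, for limma 3.58.1. DESeq2 1.42.0, other scalings, filters, a replicate block and leaving out each mouse were alternatives, and dropping or fitting the deepest library of each group was added after seeing the data. General epithelium scaling set the summed counts of the 7 epithelial markers equal between mice, not each marker. Group came from the treatment label of each sample, and replicate from the sample titles. The labels do not tie each sample to an animal by more than these titles, so p-values measure the spread between samples. An exact permutation test of 3 against 3 cannot go below 0.1 and was not used. Same-numbered control and IL-33+LM8 mice deviated together (r = 0.26, 0.288 and 0.584 across genes), which met the criterion used for pairing (each above 0.1), so the replicate block stands beside that comparison. Mice numbered 1 and 2 correlated about as well across numbers (0.227 and 0.209), and 0.584 belongs to the deepest libraries of these groups. The sequencing depth, 53877663 to 90607218 counts, limits the low members most. Genes named were the 8 chosen by exact name, the 3 members of each role with the highest mean FPKM, the 5 largest rises and 5 largest falls among members called in each comparison, every member called with the 2-fold minimum, and up to 10 members called in opposite directions in the first 2 comparisons. Other members were named to complete a count or as near-identical copies, after their values were seen. Members and lists were chosen with earlier results of these data known. The fits were checked on simulated counts. Changed genes in them moved further than most members did here, so smaller changes were not covered by that check.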

Additional observations from a re-analysis of the deposited data

How the results depend on the processing

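Members that were lower with IL-33 numbered 26 of 34 tested at a mean FPKM of at least 5, and under the other settings between 52 and 73. At that FPKM minimum 0 were higher, 1 was lower and 0 higher at least 2-fold, and the median log2 fold change was -0.44. With limma at a pseudocount of 1, 2 were lower and 1 higher at least 2-fold and the median was -0.43, and at a pseudocount of 0.1 it was -0.55. A fit of all 9 mice gave 5 higher, and the median without the deepest library of each group, a setting chosen after seeing the data, was -0.55. For IL-33+LM8 against IL-33 the FPKM minimum of 5 gave 17 higher, 0 lower, 0 past 2-fold in either direction and a median of 0.32, the replicate block gave 32 higher, the fit without the deepest libraries 15, and limma gave medians of 0.28 and 0.41 at pseudocounts of 1 and 0.1, with 0 higher and 0 lower at least 2-fold at the former and 1 higher and 1 lower at the latter. General epithelium scaling gave 4 higher at least 2-fold and a median of 0.56. For IL-33+LM8 against control 16 were lower with DESeq2, 16 with the replicate block, 13 in the fit of all 9 mice, 2 with general epithelium scaling and 1 without the deepest libraries, and 0 (FPKM minimum of 5), 6 (general epithelium scaling), 1 and 0 (limma) and 1 (without the deepest libraries) were higher. Its median was -0.091 with total count scaling and 0.074 with general epithelium scaling. Without any single mouse, members lower with IL-33 numbered 59 to 68 and their median was -0.62 to -0.55, members higher at least 2-fold with LM8 added numbered 0 to 4, and for IL-33+LM8 against control 4 to 10 were lower with a median of -0.095 to -0.037. The same replicate numbers did not pair the mice in the first 2 comparisons. The cause of these differences was not tested. For IL-33 against control, log2 fold changes that turned sign were 0.17 for Cfap298, 0.16 for Foxj1 and -0.025 for Ift52 (deepest library of each group left out), 0.009 for Foxj1 (general epithelium scaling), 0.001 for Foxj1 (replicate block), and -0.004 for Ift52 (mean FPKM of at least 5). For IL-33+LM8 against IL-33, log2 fold changes that turned sign were 0.004 for Foxj1 (no filter), 0.002 for Foxj1 (median-of-ratios factors), 0.11 for Foxj1 and 0.064 for Rsph3a (general epithelium scaling), 0.002 for Foxj1 (DESeq2), and 0.012 for Foxj1 (all 9 mice in 1 fit). For IL-33+LM8 against control, log2 fold changes that turned sign were -0.029 for Ccdc153 and -0.025 for Ift43 (mean FPKM of at least 5), -0.018 for Ccdc153, -0.027 for Ift140 and -0.014 for Ift43 (total count scaling), -0.014 for Ccdc153, -0.018 for Ift140 and -0.01 for Ift43 (limma, pseudocount 1), -0.015 for Ccdc153, -0.023 for Ift140 and -0.011 for Ift43 (limma, pseudocount 0.1), 0.072 for Ccdc40, 0.009 for Cfap36, 0.096 for Cfap69, 0.077 for Dnaaf3, 0.083 for Dnai1, 0.033 for Dnai3, 0.053 for Drc3, 0.11 for Dynlrb2, 0.12 for Foxj1, 0.07 for Ift122, 0.01 for Rsph1, 0.096 for Rsph3b and 0.028 for Tekt4 (general epithelium scaling), 0.033 for Dnaaf3, -0.022 for Dnah5 and 0.079 for Foxj1 (deepest library of each group left out), 0.011 for Foxj1 (replicate block), 0.008 for Foxj1 (deepest library of each group as a term), and -0.009 for Ift140 (mean FPKM of at least 0.5). Leaving out 1 mouse at a time gave ranges across 0 of -0.24 to 0.085 for Cfap298, -0.18 to 0.15 for Foxj1, -0.099 to 0.004 for Ift20 and -0.043 to 0.064 for Ift52 (IL-33 against control), -0.083 to 0.074 for Foxj1 and -0.095 to 0.048 for Rsph3a (IL-33+LM8 against IL-33), -0.027 to 0.048 for Ccdc153, -0.21 to 0.019 for Ccdc40, -0.12 to 0.022 for Cfap69, -0.095 to 0.018 for Dnaaf3, -0.086 to 0.028 for Dnai1, -0.11 to 0.09 for Dynlrb2, -0.15 to 0.18 for Foxj1, -0.07 to 0.14 for Hydin, -0.14 to 0.011 for Ift122, -0.014 to 0.021 for Ift140 and -0.033 to 0.064 for Ift43 (IL-33+LM8 against control).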

Other observations

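Genes of the axoneme outside the naming rule were mostly lower with IL-33. Of 32 docking complex and other axoneme genes tested, 21 were lower and 1 was higher, and 14 were higher and 0 lower by edgeR with LM8 added. Tppp3, a tubulin-binding protein of ciliated cells, measured 163, 179 and 157 FPKM in the control mice, 54.9, 63.2 and 56.9 FPKM in the IL-33 mice and 114, 106 and 102 FPKM in the IL-33+LM8 mice. IL-33 mice were all below control mice (-1.50 ± 0.072 on the log2 scale, edgeR adjusted p = 9.28e-06). Of 20 genes of cilium transport outside the rule, 14 were lower and 1 higher with IL-33, and 6 were higher and 0 lower with LM8 added. All of these lists were drawn up with earlier results of these data known.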
